A study of Mus musculus with 36 samples.

Results

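The acute phase and metallothionein genes of the mouse are described here across the 6 kinds of sample of the series. The 9 genes are a list of symbols and comprise the serum amyloid A genes Saa1, Saa2 and Saa3, haptoglobin (Hp), the orosomucoid genes Orm1 and Orm2, lipocalin 2 (Lcn2) and the metallothionein genes Mt1 and Mt2. Each symbol matched 1 gene in every count table, so that all 9 members were found among the 51413 genes that the 6 tables share.

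The acute phase response is the change in plasma proteins that follows infection or injury, when cytokines such as interleukin-6 and interleukin-1 act on hepatocytes through STAT3, C/EBP and NF-kB. Serum amyloid A, haptoglobin and orosomucoid are secreted in larger amounts in that state, whereas albumin and transthyretin are secreted in smaller amounts. Metallothioneins are small cysteine-rich proteins that bind zinc and copper. Their genes are induced by metals through MTF1, and also by glucocorticoids and by inflammation. White adipose tissue secretes several of the same proteins, haptoglobin and lipocalin 2 among them.

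RNA-seq was performed in 36 libraries from C57BL/6 wildtype mice (C57BL/6N in the study's methods), with 6 libraries for each kind of sample. Cauda spermatozoa (3 HFD, 3 LFD) came from males given a high-fat (HFD, 60 kcal% fat) or low-fat diet (LFD, 10 kcal% fat) for 2 weeks from 6 weeks of age, and morulae (3 HFD, 3 LFD) were obtained by in vitro fertilization with sperm of such males. Round spermatids (6 libraries) came from HFD and LFD males, but their columns could not be tied to a diet. Liver, epididymal white adipose tissue (eWAT) and gastrocnemius muscle (6 libraries each) came from chow-fed male offspring whose fathers had received the HFD, 3 glucose tolerant (HFDt) and 3 glucose intolerant (HFDi) for each tissue, and these columns could not be tied to HFDt or HFDi either. The age of the offspring at collection was not given in the sources used here. No LFD offspring libraries are analysed here, so that diet was compared only in sperm and morula. For 3 of the 6 morula samples the free-text description names the other diet than the title and the treatment field, which were followed.

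Libraries are named by the number in their column. The total count was 2036237 to 2552454 in liver, 1338149 to 4055537 in eWAT, 369772 to 2749920 in gastrocnemius, 20138842 to 31056066 in round spermatids, 2560219 to 4062321 in sperm and 11471251 to 12153141 in morula. Levels are given as CPM, the count scaled to a common library total. A count of 0 allows up to 3 counts, or 1.18 to 1.47 CPM in a liver library. The 3 tissue tables were prepared with a 3′ tag protocol and the other 3 from fragmented cDNA, so that levels were tested only between the 3 tissues. Marker genes fitted the labelled tissues, with summed hepatocyte markers at 47294 to 73524 CPM in liver, adipocyte markers at 25446 to 50993 CPM in eWAT, and skeletal muscle markers at 38421 to 81439 CPM in gastrocnemius. Library 17 of eWAT stood apart, with 63.5 CPM of spermatid and sperm markers against 0 to 2.29 CPM in the other 5 libraries and with the lowest adipocyte markers. Values without it are given beside several of the eWAT results it could move.

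**Figure D1:**
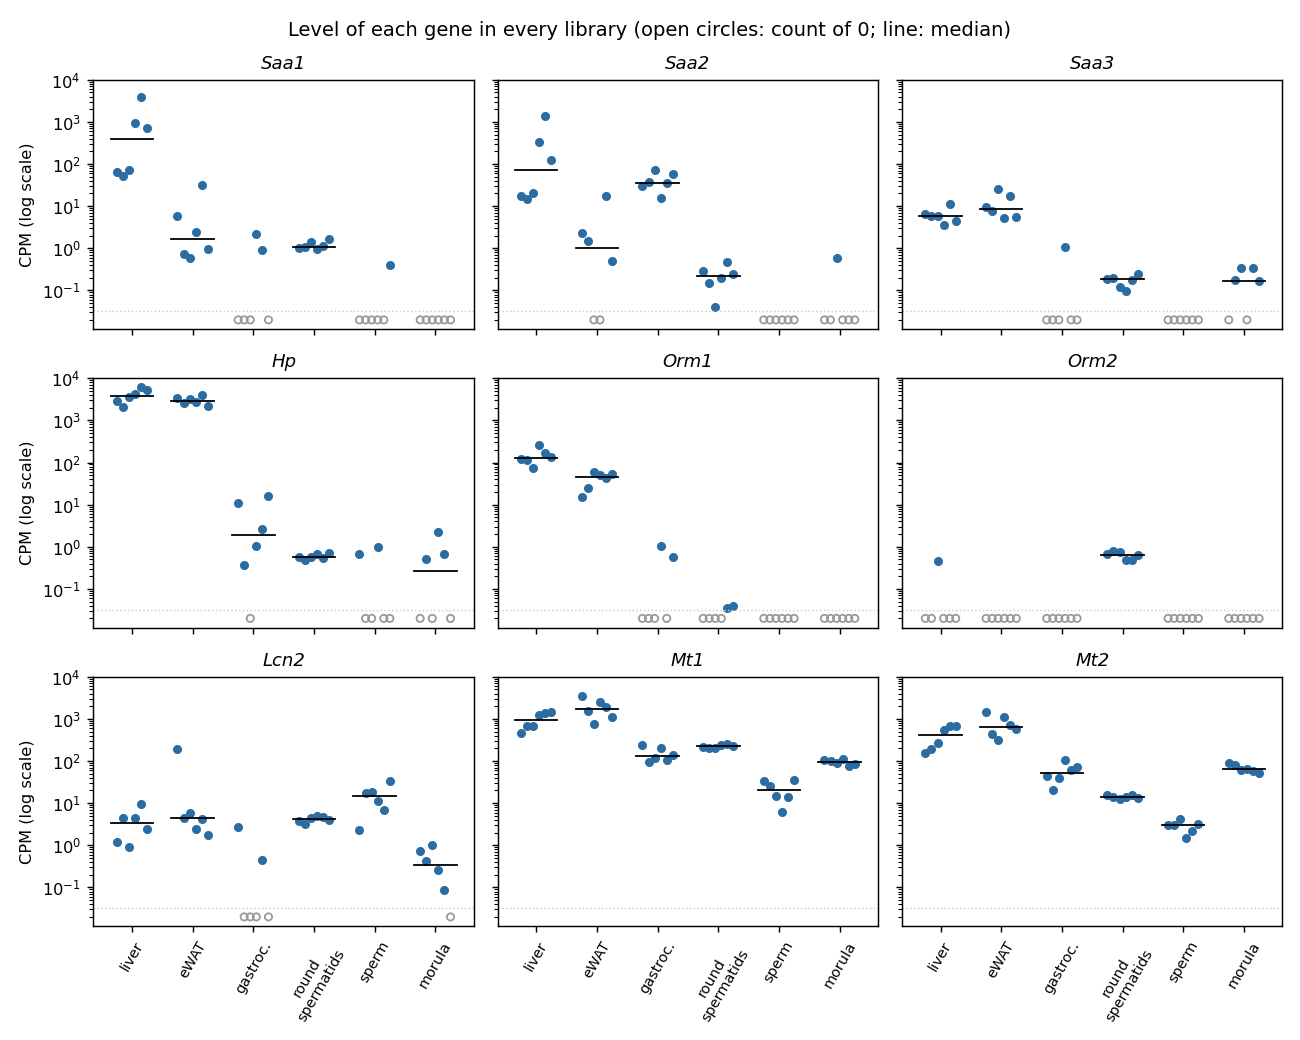
CPM (log scale) of the 9 genes in each of the 36 libraries, 1 panel a gene and 6 libraries a sample kind; filled points are libraries with a count, open circles below the dotted line are libraries with a count of 0, and horizontal lines are medians above 0. Saa1 spans 52.5 to 3838 CPM within liver, Orm2 is at a count of 0 in all but 1 of the 18 tissue libraries, and Mt1 and Mt2 have a count in every library of every sample kind.

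Of the 9 members, 7 passed the filter on low counts in the joint fit of the 18 tissue libraries, with Lcn2 and Orm2 below it. Between liver and eWAT, 4 of these 7 members were higher in liver (Saa1, Saa2, Orm1 and Hp) and none was lower, in a comparison in which 61.6% of the 10851 genes tested passed the threshold in either direction. The median log2 fold change was 1.36 over the 7 members and -0.07 over all genes tested. Between liver and gastrocnemius all 7 were higher in liver, where 66.4% of all genes tested passed, and between eWAT and gastrocnemius 5 were higher in eWAT and 1, Saa2, was lower, where 67.4% passed. Scaling by library totals in place of TMM moved the median of all genes to -1.01 between liver and eWAT and to 1.33 between eWAT and gastrocnemius, and turned the split of all calls in the first from 3138 higher and 3544 lower into 1388 and 7062, and in the second from 4464 and 2854 into 7413 and 1204. In bulk tissue, fewer cells of a type and less RNA per cell cannot be told apart.

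Serum amyloid A. Saa1 and Saa2 encode the circulating acute phase apolipoproteins of high-density lipoprotein made mainly by hepatocytes, and Saa3 a form made in adipocytes and macrophages. The 3 genes lie close together on chromosome 7 (GRCm38), Saa3 (ENSMUSG00000040026) at 46711998 to 46715700 on the minus strand, Saa1 (ENSMUSG00000074115) at 46740497 to 46742980 on the minus strand and Saa2 (ENSMUSG00000057465) at 46751790 to 46754313 on the plus strand. The 250 bases upstream of their RefSeq starts (GRCm38.p6) were alike at 238 of 249 aligned bases (95.6%). They are shown because these were the 2 members that moved most closely together in liver. Capitals mark a match to the C/EBP letters TTGCNNAA (both strands searched), which 9.56% of all 32851 promoter windows of this length held.
Saa1, chr7:46742981-46743230, minus strand: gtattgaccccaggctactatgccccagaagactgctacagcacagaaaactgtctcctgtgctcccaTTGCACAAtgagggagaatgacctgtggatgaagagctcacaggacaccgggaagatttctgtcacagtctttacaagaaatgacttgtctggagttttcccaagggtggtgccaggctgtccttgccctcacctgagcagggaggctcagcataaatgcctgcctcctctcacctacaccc
Saa2, chr7:46751583-46751832, plus strand: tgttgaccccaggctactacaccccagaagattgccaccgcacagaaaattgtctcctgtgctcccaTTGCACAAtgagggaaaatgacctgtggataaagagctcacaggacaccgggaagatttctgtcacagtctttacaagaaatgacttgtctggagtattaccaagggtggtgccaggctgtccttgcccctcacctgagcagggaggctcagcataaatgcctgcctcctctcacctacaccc
Both windows also held 1 match to the NF-kB motif, which 45.8% of all windows held, and none to the STAT letters TTCNNNGAA, held by 7.02%. The upstream windows of Saa3 and Lcn2 each held 1 C/EBP match as well, at -99 and -216 from the start, and that of Orm2 held 1 at -120. Hp and Orm1 were not among the promoter sequences used.

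In liver, Saa1 was at 65.8, 52.5, 73.3, 963, 3838 and 710 CPM in libraries 13, 14, 15, 16, 23 and 24. Saa2 was at 17.2, 14.7, 20.2, 334, 1416 and 122 CPM in the same libraries. Libraries 13, 14 and 15 were low and libraries 16, 23 and 24 high in both genes, the highest exceeding the lowest 73.1-fold for Saa1 and 96.2-fold for Saa2. The SD of log2 CPM was 2.54 for Saa1 and 2.65 for Saa2 (n = 6), above that of 99.97% and 99.98% of the 6462 genes tested in liver. The largest gap between neighbouring libraries took 54.6% of the log2 range for Saa1, with 3 libraries on either side. This was short of the share of 0.6 set as the mark of separate clusters.

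Saa3 did not follow them in liver, where it was at 3.51 to 11.5 CPM (8 to 27 counts), and it missed the filter on low counts there. It was highest in library 23, as Saa1 and Saa2 were, but lowest in library 16.

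In eWAT, Saa1 was at 0.573 to 31.4 CPM with a median of 1.70, and Saa2 at 0 to 17.3 CPM with a median of 0.994. Library 26 held 118 of the 153 Saa1 counts and 65 of the 77 Saa2 counts of the 6 libraries. Library 26 also had the highest sum of hepatocyte markers, 858 CPM against 93.4 to 461 CPM in the others, with a count in all 8 of these markers in eWAT. Among them Cyp2e1 was higher in liver than in eWAT by only 1.69 on the log2 scale, against 7.79 to 9.35 for the other markers. The part of this sum in the Saa1 and Saa2 counts was not tested. Saa3 had a median of 8.43 CPM in eWAT (5.14 to 25.8 CPM), highest in libraries 22 and 26.

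Gastrocnemius held Saa2 with next to no Saa1. Saa2 was at 16 to 72.1 CPM (median 36.4, 440 counts in all), with a count in each of the 6 libraries, whereas Saa1 had 4 counts in all, in 2 of 6 libraries. Per kilobase of exon, mean Saa2 was at 16.5 CPM and mean Saa1 at 0.204 CPM in gastrocnemius, against 127 and 384 CPM in liver. Transcripts of Saa1 and Saa2 share sequence, 31.5% of the 50-base windows of Saa1 being found in another gene, but in the last 300 bases that a 3′ tag protocol reads the share was 9.56%. Assignment of reads between these genes is uncertain to that extent. Hepatocyte markers summed to 1.82 to 6.41 CPM in gastrocnemius, with Apoc3 and Apob at 0.

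Saa1 was higher in liver than in eWAT by 7.81 on the log2 scale (SE 1.10, edgeR quasi-likelihood test, adjusted p = 1.6e-06), with no overlap between the 6 libraries of each. In CPM, groups did not overlap in 57.2% of all genes tested. Saa2 was higher in liver by 7.16 (SE 1.14, adjusted p = 8.64e-06) although the groups overlapped, the eWAT library 26 reaching above the 2 lowest liver libraries. Without eWAT library 26 the log2 fold changes were 9.46 and 9.29, and without liver library 23 they were 6.47 and 5.51. Saa3 differed by 0.07 (SE 0.39, adjusted p = 0.889) and turned negative without eWAT library 17 (-0.023) or liver library 23 (-0.19) and with library totals (-0.88).

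Against gastrocnemius, Saa1 was higher in liver by 10.96 (SE 1.51, adjusted p = 9.66e-07) and Saa3 by 5.44 (SE 0.85, adjusted p = 5.93e-06), without overlap, as in 43.1% of all genes tested. Both rest on gastrocnemius counts at or near 0 and depend on the fitted prior. Saa2 was higher in liver by 2.83 (SE 0.92, adjusted p = 0.00919), but the groups overlapped and without liver library 23 the call was lost (1.19, adjusted p = 0.17). In eWAT Saa2 was lower than in gastrocnemius by 4.33 (log2 fold change -4.33, SE 1.08, adjusted p = 0.00127), and by more without eWAT library 26 (-6.48). Saa3 was higher in eWAT than in gastrocnemius by 5.36 (SE 0.84, adjusted p = 6.56e-06), with no overlap between groups, as in 57.8% of all genes tested. Saa1 did not pass between eWAT and gastrocnemius (3.15, SE 1.95, adjusted p = 0.156), passed with library totals (4.08) and without the filter on low counts (3.25), and fell to 1.48 (adjusted p = 0.54) without eWAT library 26.

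Haptoglobin and the orosomucoids. Haptoglobin binds free haemoglobin in plasma for uptake by the receptor Cd163, and orosomucoid, or alpha-1-acid glycoprotein, binds basic and neutral drugs and lipids. Hp (ENSMUSG00000031722) lies on the minus strand of chromosome 8 at 109575128 to 109579172, and Orm1 (ENSMUSG00000039196) and Orm2 (ENSMUSG00000061540) on the plus strand of chromosome 4 at 63344560 to 63348163 and 63362449 to 63365878. Hp was abundant in both liver and eWAT, at 2031 to 6322 CPM in liver (median 3869) and 2178 to 3911 CPM in eWAT (median 2916), so that the groups overlapped. Liver libraries 23 and 24 were highest. Hp was higher in liver by 1.36 on the log2 scale under TMM scaling (SE 0.45, adjusted p = 0.0113), a call lost with library totals (0.41) and with DESeq2 (1.37, adjusted p = 0.0522). In gastrocnemius Hp was at 0 to 15.8 CPM (40 counts in all), and both other tissues were higher, liver by 9.78 (SE 0.68, adjusted p = 1.02e-11) and eWAT by 8.42 (SE 0.65, adjusted p = 1.18e-10). Within eWAT Hp varied little, its SD of log2 CPM of 0.26 exceeding that of 27.8% of the 9832 genes tested, whereas in liver its SD of 0.57 exceeded that of 93.0% of genes.

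Orm1 was at 74.2 to 264 CPM in liver (median 127) and at 15.1 to 59.6 CPM in eWAT (median 46.6), without overlap, and was higher in liver by 2.73 (SE 0.31, adjusted p = 6.58e-08). Liver library 16 was highest and library 15 lowest, and in eWAT library 17 was lowest. Orm1 had 2 counts in gastrocnemius, and was higher in liver by 9.17 (SE 0.61, adjusted p = 5.39e-12) and in eWAT by 6.44 (SE 0.70, adjusted p = 3.18e-08). Without eWAT library 17, Orm1 was higher in liver than in eWAT by 2.52 and in eWAT than in gastrocnemius by 6.63. Orm2 had 1 count in liver and 0 in eWAT and gastrocnemius. The last 300 bases of Orm1 share 58.6% of their 50-base windows with Orm2 or Orm3, and those of Orm2 share 65.3% with Orm1, Orm3 or Gm11212, so that the counts of these genes could be split or dropped, depending on how reads with several matches were counted, which is not given in the sources used here.

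Lipocalin 2. Lcn2 binds bacterial siderophores and is made by neutrophils, epithelia and adipocytes, and the gene (ENSMUSG00000026822) lies on the minus strand of chromosome 2 at 32384633 to 32388252. Its level was 0.899 to 9.37 CPM in liver (2 to 22 counts), highest in library 23, and 1.73 to 5.73 CPM in 5 of the 6 eWAT libraries (6 to 16 counts). Library 17 of eWAT held 667 counts, 190 CPM. This library had the highest spermatid and sperm markers (63.5 CPM) and the highest epididymis markers (12.0 CPM, against 0 to 9.72 CPM in the others, with Lcn8, Lcn5, Lcn9 and Cst11 at 0 in every eWAT library). Its neutrophil markers were at 28.2 CPM, within the 12.7 to 55.5 CPM of the other 5 libraries. The part of these cells in its Lcn2 counts was not tested. Gastrocnemius had 2 counts of Lcn2, in 2 of 6 libraries.

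Metallothioneins. Mt1 and Mt2 lie next to each other on the plus strand of chromosome 8 (GRCm38), Mt2 (ENSMUSG00000031762) at 94172664 to 94173568 and Mt1 (ENSMUSG00000031765) at 94179082 to 94180327. An antisense gene, Gm45774, overlaps Mt2, and reads of the pair cannot be told apart unless strand was used in counting, which is not given in the sources used here. The 250 bases upstream of their RefSeq starts are shown with their matches to the core letters of the metal response element, the site bound by MTF1. Binding was not measured. Capitals mark matches to the core letters TGCACNC or TGCGCNC on either strand, which 21.4% of all promoter windows held.
Mt1, chr8:94178839-94179088, plus strand: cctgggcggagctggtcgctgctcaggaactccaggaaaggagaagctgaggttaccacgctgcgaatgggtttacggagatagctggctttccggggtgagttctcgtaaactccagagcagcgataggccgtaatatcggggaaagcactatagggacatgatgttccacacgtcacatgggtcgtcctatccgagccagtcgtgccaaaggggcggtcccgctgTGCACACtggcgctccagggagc
Mt2, chr8:94172368-94172617, plus strand: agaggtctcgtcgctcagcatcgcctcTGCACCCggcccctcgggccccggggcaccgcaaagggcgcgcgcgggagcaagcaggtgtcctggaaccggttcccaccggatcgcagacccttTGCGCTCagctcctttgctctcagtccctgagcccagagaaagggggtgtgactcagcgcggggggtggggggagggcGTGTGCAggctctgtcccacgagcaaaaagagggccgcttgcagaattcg
Mt1 held 1 such match and Mt2 held 3. The Mt1 window also held 2 overlapping matches to the NF-kB motif and the Mt2 window 1 to the C/EBP letters. The Mt1 window held a match to the glucocorticoid response element, found in 0.387% of all windows, and the Mt2 window held none. No match overlapped a match of another motif.

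Mt1 was at 453 to 1469 CPM in liver (median 956), 741 to 3533 CPM in eWAT (median 1749) and 93.8 to 235 CPM in gastrocnemius (median 128). Mt2 was at 158 to 690 CPM in liver (median 413), 320 to 1474 CPM in eWAT (median 641) and 20.4 to 106 CPM in gastrocnemius (median 52.1). In both genes every liver and eWAT library lay above every gastrocnemius library, and liver and eWAT overlapped. Liver exceeded gastrocnemius by 2.72 for Mt1 (SE 0.36, adjusted p = 4.94e-07) and by 2.89 for Mt2 (SE 0.43, adjusted p = 3.22e-06), and eWAT exceeded it by 2.74 (SE 0.36, adjusted p = 5.86e-07) and 2.82 (SE 0.43, adjusted p = 4.99e-06), or by 2.53 and 2.60 without eWAT library 17. Between liver and eWAT neither passed under TMM scaling, with -0.01 (SE 0.33, adjusted p = 0.98) for Mt1 and 0.07 (SE 0.39, adjusted p = 0.899) for Mt2. With library totals both were lower in liver, Mt1 by a log2 fold change of -0.98 that passed and Mt2 by -0.89 that did not, beside the shift of all genes to -1.01. In liver, libraries 13, 14 and 15 held the 3 lowest values of both genes and libraries 16, 23 and 24 the 3 highest, the same libraries that were low and high in Saa1. The share of all genes tested in liver that split the libraries this way is not given here.

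The related lists give the setting of these levels between liver and eWAT, where 61.6% of the 10851 genes tested passed in either direction. Of 18 other positive acute phase genes tested, 16 were higher in liver than in eWAT and 1 was lower, led in liver by Fgb (fibrinogen beta chain, 4472 to 6051 CPM), C3 (complement C3, 2036 to 3439 CPM) and Hpx (hemopexin, which binds haem, 1553 to 3565 CPM). All 8 negative acute phase genes were higher in liver, led by Alb (19294 to 38866 CPM), Ahsg (10861 to 19469 CPM) and Ttr (9079 to 14395 CPM). Alb and Ttr are also among the hepatocyte markers. Of the 11 acute phase signalling genes tested, 2 were higher in liver and 3 in eWAT, led in liver by Cebpb (181 to 309 CPM), Nfkbia (187 to 268 CPM) and Il6st (109 to 146 CPM). Of 6 zinc and metal handling genes tested, 4 were higher in liver and 2 in eWAT.

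Co-variation in liver. The 6 members that passed the filter in liver formed 15 pairs, and Pearson's r of log2 CPM over the 6 libraries was positive in each, with a median of 0.86 and above 0.8 in 10 pairs. Exact two-sided permutation tests over the 720 pairings of 6 libraries cannot go below p = 0.00278. The strongest pair was Saa1 and Saa2 with r = 0.99 and Spearman's rho = 1 (exact permutation p = 0.00278 for each, adjusted over 15 pairs 0.0417), the 1 pair past the threshold. Without the 2 libraries farthest from the median of Saa1 (16 and 23), r over the other 4 was 1.00. Of these 4, library 24 was at 710 CPM of Saa1 and the rest at 52.5 to 73.3 CPM. This r was therefore set largely by library 24 and is no separate check on the pair.

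The next pair, Mt1 and Mt2, reached r = 0.98 and rho = 0.94 (exact permutation p = 0.00833 and 0.0167, adjusted 0.0556 and 0.0625), with r = 0.97 over the 4 libraries other than 13 and 24. Under library totals this pair passed as well. Saa1 correlated with Hp at r = 0.90 (rho = 0.94, exact permutation p = 0.0111 and 0.0167, adjusted 0.0556 and 0.0625). Without libraries 16 and 23 this r was 0.91, again set largely by library 24. Saa1 correlated with Mt2 at r = 0.92 and with Mt1 at r = 0.89 (exact permutation p = 0.0556 and 0.0611, both 0.0917 adjusted), but by ranks less, with rho = 0.77 and 0.66. Neither pair across the 2 families passed.

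Orm1 was the loosest of the 6, with r between 0.38 (Hp, exact permutation p = 0.464) and 0.70 (Saa2, exact permutation p = 0.117), and from 0.36 (Hp) to 0.80 (Mt2) over the 4 libraries left in its pairs. All pairs share the same 6 libraries, their scaling and the gap between libraries 13, 14 and 15 and libraries 16, 23 and 24. Without library 23, Saa1 and Saa2 still had r = 0.98 over 5 libraries, where p cannot go below 0.0167 and no pair passed.

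**Figure D2:**
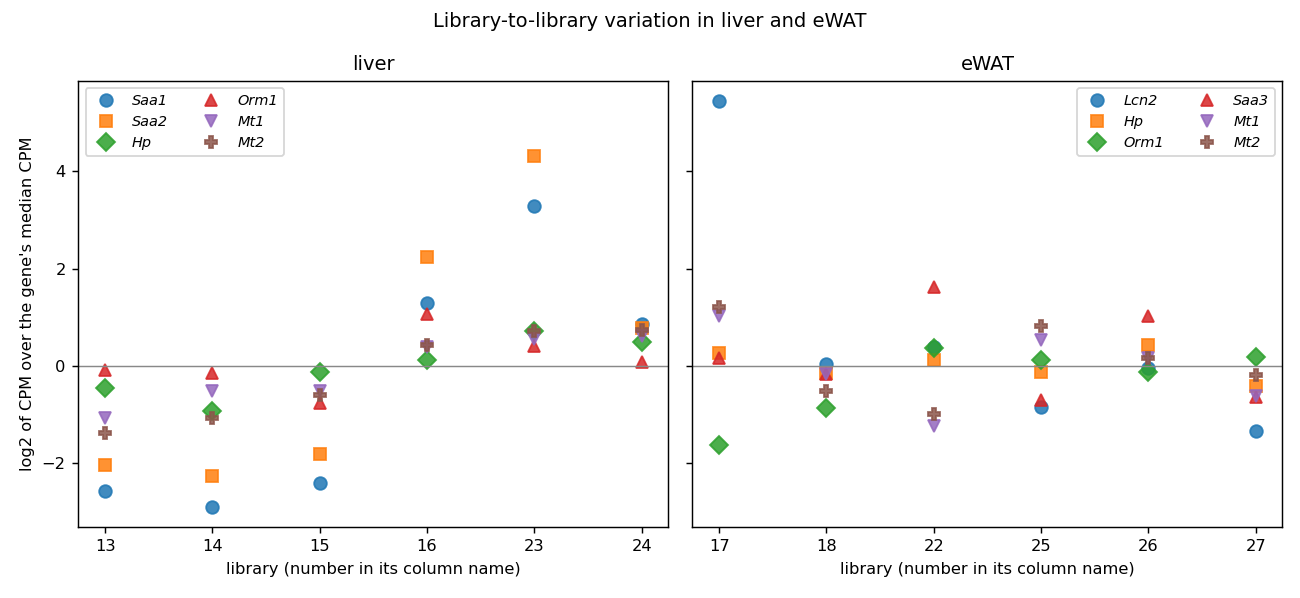
Log2 of each gene's CPM over its median across 6 libraries (vertical axis) for each library (horizontal axis) in liver (left) and eWAT (right), 1 symbol a gene. In liver Saa1, Saa2, Mt1 and Mt2 are below their medians in libraries 13, 14 and 15 and above them in 16, 23 and 24. The share of all genes that split this way is not given. In eWAT Lcn2 is far above its median of 4.37 CPM in library 17 alone, at 190 CPM.

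Against the whole table, r of 0.9 or more with Saa1 was found for 45 of 6461 other genes (0.696%), among them the members Saa2, Hp and Mt2. For Mt1 it was found for 57 genes (0.882%), with Mt2 the 1 member among them. The 3 genes most alike to Saa1 over the 6 libraries were Lgmn (r = 0.99), Saa2 (0.99) and Sbf1 (0.99), and those most alike to Saa2 were Alas2 (r = 1.00, the erythroid enzyme of haem synthesis), Saa1 and Lgmn. Alas2 ran opposite to the 4 globin genes of the erythroid markers, which had r of -0.85 to -0.23 with Saa2. Those most alike to Mt1 were Wdr6 (r = 1.00), Mt2 and Zfp771 (0.98), to Hp Cpsf1, Ntpcr and Tmem203 (0.99 each), and to Orm1 Bmt2 (0.99), Ptpn1 (0.97) and Cdk4 (0.96). Wdr6 (r = 0.98) and Mt1 were among the genes most alike to Mt2.

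Few genes of the other lists varied with Saa1. None of 17 other positive acute phase genes tested in liver reached r = 0.9 with it, and their median r was 0.46. For the 8 negative acute phase genes the median r was -0.01, for the 9 signalling genes -0.08, for the 7 glucocorticoid targets 0.00 and for the 5 zinc and metal handling genes -0.45, whereas over the other 5 members it was 0.90. C-reactive protein, a minor acute phase protein in the mouse, stayed between 224 and 283 CPM. With Mt1, 1 of the 17 positive acute phase genes reached r = 0.9 (Itih4), and the glucocorticoid targets had a median r of -0.35. The summed glucocorticoid targets were highest in library 13 (617 CPM), where Mt1 and Mt2 were lowest, and lowest in library 24 (188 CPM), where both were highest. These are only the extremes of the libraries. With Mt2 the targets had a median r of -0.23, and their part in the Mt1 and Mt2 levels was not tested.

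Several measures of the libraries moved with Saa1 in liver. The share of counts from mitochondrially encoded genes was 27%, 26.7% and 24.2% in libraries 13, 14 and 15, and 23.7%, 21.7% and 22.1% in 16, 23 and 24. The sum of 5 erythroid markers was 490, 421 and 509 CPM in libraries 13, 14 and 15 against 356, 348 and 314 CPM in 16, 23 and 24. Within this list Alas2 ran the other way, with r = 0.99 with Saa1. In the same libraries 6 neutrophil markers summed to 3.13, 6.38 and 7.19 CPM against 13.6, 13.2 and 9.82 CPM, with Camp and Ltf at 0. Hepatocyte markers did not divide the libraries this way, being lowest in library 14 (47294 CPM) and 24 (52757 CPM). The 6 libraries are grouped here by their Saa1 values, and the share of all genes that divide them this way is not given. The part of these measures in the Saa1 and Mt1 levels was not tested, and the HFDt and HFDi labels could not be set beside them.

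Co-variation in eWAT. Saa3, Hp, Orm1, Mt1 and Mt2 passed the filter in eWAT and formed 10 pairs, with a median r of -0.06 and none past the threshold. Mt1 and Mt2 were the 1 pair above 0.8, with r = 0.94 and rho = 0.94 (exact permutation p = 0.0139 and 0.0167, adjusted over 10 pairs 0.139 and 0.167), and r = 0.78 without libraries 17 and 22. Library 17 was highest in both genes (3533 and 1474 CPM) and library 22 lowest (741 and 320 CPM). The next was Saa3 with Hp at r = 0.69 (rho = 0.77, exact permutation p = 0.147 and 0.103, adjusted 0.491 and 0.343, and r = 0.68 without libraries 22 and 26). Hp, correlated with both metallothioneins in liver at 0.81 and 0.90, had r = 0.21 with Mt1 and 0.09 with Mt2 in eWAT (exact permutation p = 0.722 and 0.911), and the difference between the tissues was not tested.

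Without library 17, the median r was 0.03, Mt1 and Mt2 had r = 0.90 over 5 libraries (exact permutation p = 0.05, adjusted 0.5) and no pair passed. With Mt1, r of 0.9 or more was found for 76 of 9831 other genes in eWAT (0.773%), with Mt2 among them, and the 3 most alike were Gtf2f2, Plin5 and Gkap1 (0.99 each). Over the 5 libraries without 17, where a high r is more often met, 207 genes (2.11%) reached it and these 3 had r of 0.98 to 1.00. Those most alike to Mt2 were Heyl, C230037L18Rik (0.99 each) and Cab39l (0.98), to Hp Ube2n (0.98), Mthfd1 (0.98) and Eml5 (0.97), to Orm1 Raph1, Myd88 and Qk (0.99 each) and to Saa3 Bbc3, Rmnd5b (0.99 each) and Phkb (0.98). Over the 5 libraries without 17, these had r of 0.97 to 1.00. Erythroid markers ran against Mt1 in eWAT, with a median r of -0.78 over 5 genes (-0.69 without library 17), and summed to 4146 CPM in library 17 and 6625 CPM in library 25 against 9295 to 14074 CPM in the other 4. Their part in the Mt1 level was not tested.

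**Figure D3:**
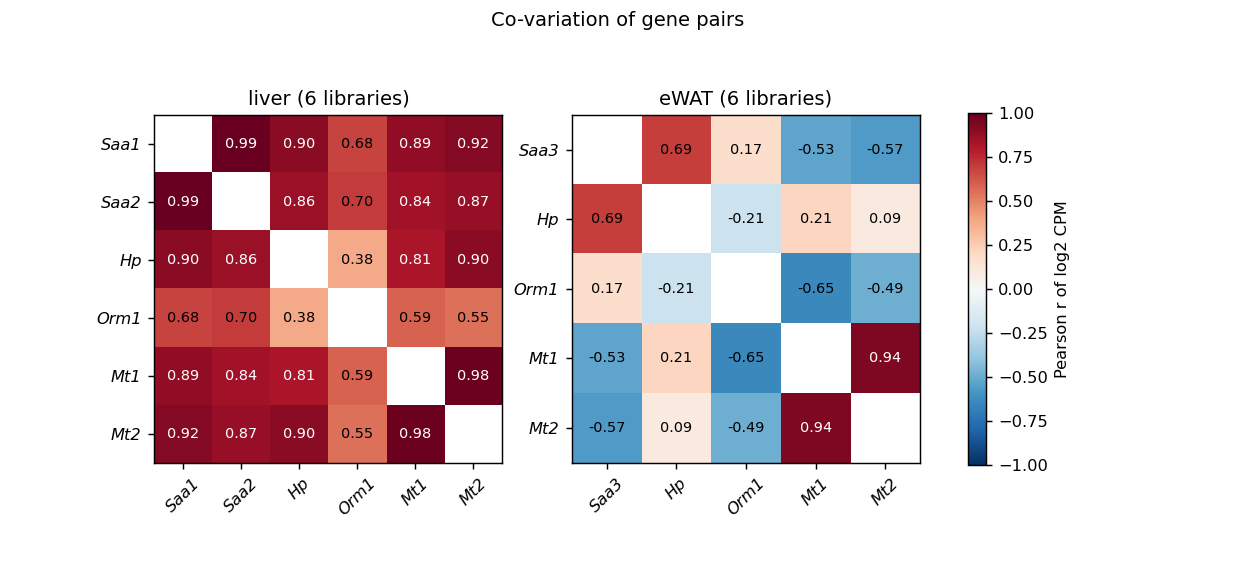
Pearson's r of log2 CPM between each pair of members that passed the filter on low counts in liver (left, 15 pairs) and in eWAT (right, 10 pairs), over 6 libraries each; colour and number give r. All 15 pairs are positive in liver, with Saa1 and Saa2 at 0.99 and Mt1 and Mt2 at 0.98, while in eWAT Mt1 and Mt2 are the 1 pair above 0.8.

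Round spermatids. Mt1 was at 200 to 247 CPM (median 223, SD 20.2, n = 6) and Mt2 at 12.9 to 16 CPM (median 14.2) in round spermatids, the haploid cells that follow meiosis. Per kilobase of exon, Mt1 averaged 179 CPM and Mt2 24.6 CPM. Lcn2 was at 3.28 to 5.09 CPM, Saa1 at 0.966 to 1.67 CPM and Hp at 0.497 to 0.717 CPM. Orm2 had 14 to 19 counts in each library (0.483 to 0.795 CPM), and Orm1 had 2 counts in all. Hepatocyte markers summed to 4.64 CPM at the median and spermatid and sperm markers to 8054 CPM.

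Diet in sperm. Saa2, Saa3, Orm1 and Orm2 had 0 counts in every sperm library, Saa1 had 1 count in all, and a count of 0 allows up to 0.739 to 1.17 CPM a library. Hp had 2 counts in h1000 and 4 in h3000 (0.985 CPM), both HFD, and 0 in the other 4 libraries. Lcn2 and Mt1 passed the filter, and neither passed the threshold between HFD and LFD, where 0% of 8643 genes tested did (edgeR; 1124 genes at an unadjusted p under 0.05, and 295 genes past the threshold with DESeq2).

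Lcn2 in TMM-scaled CPM was at 4.55, 15.95 and 16.1 in HFD libraries h1000, h3000 and h4000, and at 11.7, 11.8 and 12.8 in LFD libraries l1000, l2000 and l4000. The groups overlapped, and the log2 fold change was 0.00 (SE 0.64, adjusted p = 0.999) under TMM scaling but -1.76 under library totals, where the 3 HFD libraries (2.34 to 11.3 CPM) lay below the 3 LFD libraries (17.9 to 33.6 CPM), as the groups of 57.7% of all genes tested did not overlap on that scale. Library totals moved the median of all genes to -1.84. Mt1 in TMM-scaled CPM was at 67.0, 8.67 and 31.5 in HFD and 16.7, 9.44 and 13.7 in LFD libraries. It was higher in HFD by 1.39 (SE 0.66, unadjusted p = 0.0541, adjusted p = 0.397, higher than every LFD library in 2 of 3 HFD libraries), and lower under library totals (-0.51). The value rested on single libraries, being 0.53 without h1000 and 1.85 without h3000 (adjusted p = 0.738 and 0.174). Mt2, with 6 to 13 counts, averaged 4.29 ± 1.97 in HFD and 1.98 ± 0.769 in LFD (SD, n = 3 each, exact permutation p = 0.2, two-sided), whereas in CPM of library totals it averaged 2.22 in HFD and 3.49 in LFD. With 3 libraries a group no exact p can go below 0.1. Both tested members overlapped between diets in TMM-scaled CPM, where the groups of 20.4% of all genes tested did not.

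Epididymis markers were present in every sperm library, at 1629 to 2879 CPM in HFD and 3015 to 24985 CPM in LFD libraries, highest in l4000. Neutrophil markers were at 49.7 to 106 CPM in HFD and 234 to 1208 CPM in LFD libraries, with a count for 3 of 6 markers and Camp, Ngp and Retnlg at 0, and mesothelium markers at 41 to 84.4 and 158 to 627 CPM. These sums are in CPM of library totals, where the groups of 57.7% of all genes tested did not overlap. Under TMM scaling no tested marker of these lists passed, as no gene of the whole table did. Median log2 fold changes were -0.72 (epididymis, 2 of 8 genes tested), -1.03 (neutrophil, 2 of 6) and -0.63 (mesothelium, 1 of 5). The other marker lists with a tested gene went the other way. They were at 2.19 (erythroid, 5 of 5), 1.67 (macrophage, 3 of 6), 1.22 (spermatid and sperm, 5 of 6) and 0.41 (morula, 1 of 6). Macrophage sums overlapped between diets, at 24.05 to 38.65 CPM in HFD and 29.83 to 47.26 CPM in LFD, as did erythroid sums, at 124.5 to 250.5 and 32.42 to 203.9 CPM. The mitochondrial share was 78.1% to 84.3% in HFD and 43.5% to 64.6% in LFD. Lcn2 was highest in l4000 in CPM of the library total (33.6). Their part in the Lcn2 and Mt1 levels was not tested.

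Diet in morula. Mt1 and Mt2 passed the filter in morulae, preimplantation embryos after 72 hours of culture, and neither passed the threshold between HFD and LFD, where 0% of 13447 genes tested did (edgeR; 858 genes at an unadjusted p under 0.05, and 18 past the threshold with DESeq2). Mt2 in TMM-scaled CPM was at 68.1, 56.3 and 51.4 in HFD libraries H5, H6 and H7, and at 90.4, 81.3 and 62.1 in LFD libraries L1, L2 and L3. The groups overlapped in 1 library of each, and the log2 fold change was -0.41 (SE 0.15, unadjusted p = 0.0152, adjusted p = 0.696). Mt1 was at 114, 76.2 and 82.5 in HFD and 103, 104 and 89.6 in LFD libraries, with a log2 fold change of -0.12 (SE 0.14, adjusted p = 0.928), which was -0.32 without H5 and -0.0071 without H6.

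Lcn2 fell short of the filter in morula, with 3, 1 and 0 counts in HFD and 9, 5 and 12 counts in LFD libraries. In TMM-scaled CPM it averaged 0.116 ± 0.135 in HFD and 0.735 ± 0.293 in LFD (SD, n = 3 each). The groups did not overlap (exact permutation p = 0.1, two-sided, the smallest that 3 against 3 allows). Groups did not overlap in 12.1% of the genes that passed the filter, a share that does not apply to Lcn2, and both tested members overlapped. Neutrophil markers summed to 0 to 0.785 CPM (highest in L2) and epididymis markers to 0.412 to 2.80 CPM (highest in H7) over the 6 morula libraries. Macrophage markers were at 2.30 to 2.89 CPM in HFD and 3.62 to 4.86 CPM in LFD libraries, without overlap, with a count for Cd68 and Csf1r and with Adgre1, Lyz2, Cd14 and C1qa at 0. Marker sums are in CPM of library totals, a scale for which no share of all genes is given here. Of these macrophage markers 1, Cd68, was tested and did not pass (log2 fold change -0.88, SE 0.41, edgeR adjusted p = 0.769). The part of these markers in the Lcn2 counts was not tested. Hp had 40 counts in 3 libraries, 26 of them in H5, Saa3 had 12 counts in 4 libraries, Saa2 had 7 counts, all in L3, and Saa1, Orm1 and Orm2 had 0, which allows up to 0.247 to 0.262 CPM a library. No gene of the other lists passed the threshold in either diet comparison.

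**Figure D4:**
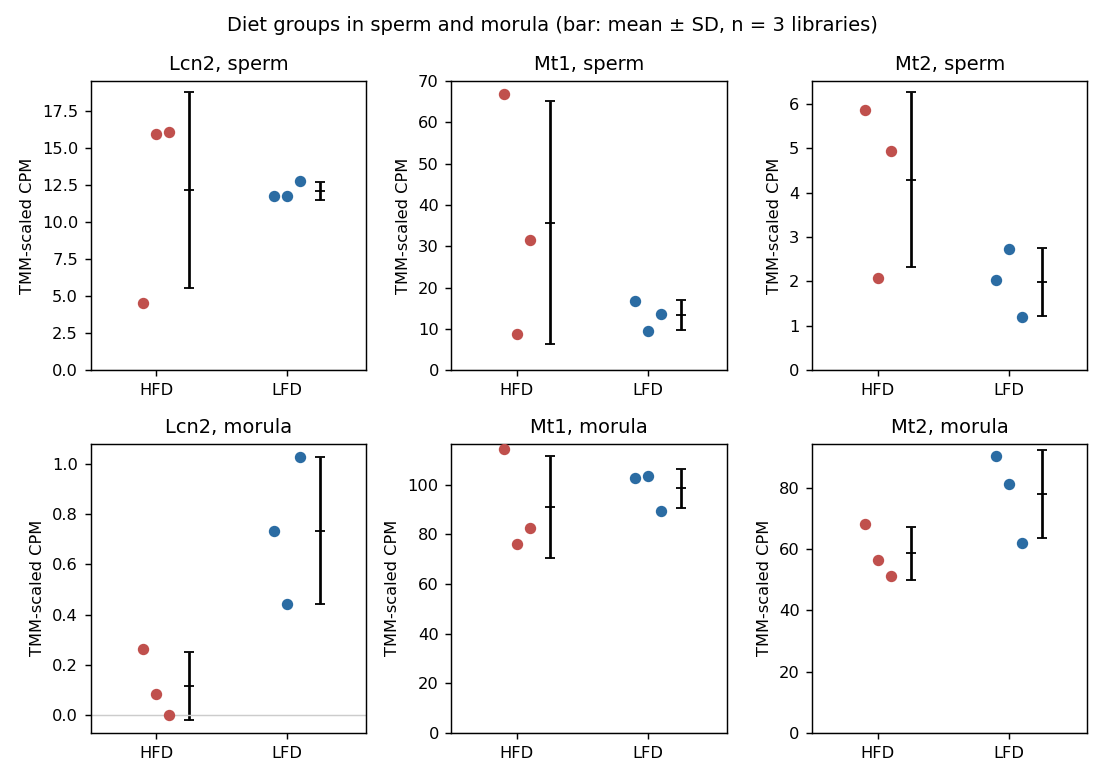
TMM-scaled CPM (vertical axis, linear from 0) of Lcn2, Mt1 and Mt2 in HFD and LFD libraries of sperm (top) and morula (bottom); points are libraries and bars the mean ± SD of 3. HFD and LFD overlap in 5 of the 6 panels, and in morula all 3 HFD libraries have less Lcn2 (up to 0.265) than the 3 LFD libraries (from 0.443). Lcn2 in morula rests on 0 to 12 counts a library and missed the filter on low counts. Its exact permutation p of 0.1 is the smallest that 3 against 3 allows, and no share of all genes is given for such low counts.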

How the data were processed

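Counts per gene were deposited by the authors as 6 tables of raw counts, not normalized, 1 table for each kind of sample. Per the study's methods, reads were trimmed with BBDuk, aligned with STAR to GRCm38 and counted with featureCounts. Sperm libraries were 75-bp single-ended, the 3 tissues 50-bp single-ended 3′ tag libraries. How reads with several matches and strand were counted is not given in the sources used here. Liver, eWAT, gastrocnemius and round spermatid columns were taken as their table's sample kind.

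The 9 members and all lists were chosen with earlier results of these data known. Symbols came from GENCODE (GRCm38) by gene identifier. Genes with low counts were removed with filterByExpr (minimum count 10) and libraries scaled by TMM in edgeR 4.0.16 (R 4.3.3). HFD was compared with LFD in sperm and in morula, and the 3 tissues in 1 joint fit, with quasi-likelihood tests and Benjamini-Hochberg adjustment over all genes tested (threshold 0.05). SE was computed from the fold change and the F statistic. Correlations used TMM-scaled log2 CPM with a prior count of 2, exact permutation over pairings and Benjamini-Hochberg adjustment over the pairs of a tissue; a pair was also recomputed without the 2 libraries farthest from the first gene's median. The scripts were tested on simulated data. Nothing in the labels states that libraries of a group came from separate animals, so that p-values measure the spread between these samples. No 2 libraries of a group agreed within sampling noise (chi-square per degree of freedom of at least 3.50). Intervals and the limit of 3 counts cover counting error only.

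Named genes were all members, for each member that passed the filter in liver or eWAT the 3 genes of the whole table with the highest r (1 of these is not reported here), genes of the other lists past the threshold in a diet comparison (none passed), and the 3 genes of a list with the highest mean CPM in the tissue; Crp, Itih4, Camp, Ltf, Apoc3, Apob, Lcn8, Lcn5, Lcn9 and Cst11 were named after their values were seen. Sperm libraries of both diets share the numbers 1000 and 4000, but their deviations from the group means did not correlate (r = -0.03), so that the numbers were not taken to pair the samples. Alternatives were DESeq2 1.42.0, its size factors, library totals, no filter, leaving out libraries, Spearman's rho and a prior count of 0.5. Leaving out liver library 23, eWAT libraries 17 and 26 and gastrocnemius library 4 was chosen after seeing the data.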

Additional observations from a re-analysis of the deposited data

Results flagged for a closer look

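In 5 cases 1 library of 6, in linear CPM, stood farther from the others than Dixon's 95% critical value for 6 samples allows. Over liver, eWAT, gastrocnemius and round spermatids, members with more than 3 counts in a library were examined, and chance flags about 1 in 20 groups of normally spread values, which skewed CPM are not. In liver, library 23 had 3838 CPM of Saa1, with the next at 963 CPM, and 1416 CPM of Saa2, with the next at 334 CPM. In eWAT, library 26 had 31.4 CPM of Saa1, with the next at 5.98 CPM, and 17.3 CPM of Saa2, with the next at 2.28 CPM. Library 17 of eWAT had 190 CPM of Lcn2, with the next at 5.73 CPM. On log2(CPM + 1), where the gap was compared after seeing the data, the gap took 0.32 of the range for both genes in liver library 23, 0.508 for Saa1 and 0.592 for Saa2 in eWAT library 26, and 0.787 for Lcn2 in eWAT library 17, the 1 case still past the critical value.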

How the results depend on the processing

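Between HFD and LFD in sperm, 0 genes passed the threshold with edgeR, against 295 with DESeq2, 3357 with library totals, 41 without the filter on low counts, and 0 to 0 when each library was left out. The replicate block on the shared numbers 1000 and 4000, which leaves 4 libraries, gave 2 genes. In morula, where 0 passed, DESeq2 gave 18 and no filter 63, and leaving out each library gave 0 to 2, the 2 without HFD library H5; no replicate block could be fitted there because the groups share no number. No member passed in any of these settings. The log2 fold change of Lcn2 in sperm turned negative with library totals (-1.76), without the filter (-0.18), with the replicate block (-0.50) and over the same 4 libraries with no block (-0.27), and ran from -0.27 to 0.37 when each library was left out (-0.27 without h3000, -0.23 without h4000 and -0.03 without l2000). That of Mt1 turned negative with library totals (-0.51) and was 0.53 without h1000 and 1.85 without h3000. Between liver and eWAT, Saa3 turned negative with library totals (-0.88) and without eWAT library 17 (-0.023) or liver library 23 (-0.19). Mt1 turned positive with DESeq2 (0.0008), with its size factors (0.0006) and without eWAT library 17 (0.18), and Mt2 turned negative with library totals (-0.89) and without liver library 23 (-0.12). In liver, 1 pair of members passed, 2 with library totals and 0 without library 23, where only 5 libraries remained. Otherwise the cause was not tested. Of 276 alternative values for single genes and pairs, 252 kept their direction and side of the threshold.

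Depth limits the members with few counts. Orm2 in the 3 tissues and Saa1, Saa2, Saa3, Orm1 and Orm2 in sperm lay under the limit that a count of 0 allows, so that differences between those groups were not detectable. The size of a difference from gastrocnemius is poorly fixed for Saa1, Saa3 and Orm1, which had few counts there. Gastrocnemius library 4 held 369772 counts in all. Each tissue has 6 libraries, and correlations over so few rest on single libraries.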
